A study of Mus musculus with 65 samples.

Results

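The 10 genes Elf5, Stat5a, Kit, Cd14, Ltf, Aldh1a3, Sox10, Sox9, Ehf and Elf3 encode regulators and markers of luminal progenitor and alveolar cells of the mouse mammary gland. They were chosen by name, as genes with a probe set annotated to that gene alone, and all 10 were found, on 22 probe sets, among 18194 genes measured in this way. Messenger RNA was measured on Affymetrix arrays in 17 mammary glands and 48 mammary tumours. Whole glands came from Balb/c littermates, 10 weeks old, with both copies of Tgfb1 (wild type, WT) or with 1 copy (heterozygote, HET). All these mice received estrogen and progesterone 2 days before a dose of 10 cGy ionizing radiation or a sham treatment, and RNA came from the inguinal gland's posterior portion, freed of its lymph node. The groups were WT sham at 1 week (3 arrays), WT 10 cGy at 1 week (3), WT 10 cGy at 4 weeks (3), HET sham at 1 week (3), HET 10 cGy at 1 week (2) and HET 10 cGy at 4 weeks (3). The tumours were p53null: they grew from BALB/c p53null mammary fragments placed in the inguinal fat pads of BALB/c hosts whose own epithelium had been removed at 3 weeks of age, so that Tgfb1 genotype and radiation differed in the host and not in the grafted epithelium. Hosts were wild-type or TGFb1 heterozygote and were irradiated (IR) or not 3 days before transplantation, which gave 9 tumours of WT sham hosts, 23 of WT IR hosts, 6 of HET sham hosts and 10 of HET IR hosts. No label states the dose that hosts received. The comparisons address whether radiation acts on mammary tissue, and on tumours through their host, and whether the Tgfb1 genotype alters that.

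Luminal progenitors are the cells of the inner mammary epithelium from which alveolar, milk-producing cells arise in pregnancy. Prolactin acts through the kinase Jak2 and the transcription factor Stat5a, and Elf5, an ETS-family transcription factor, directs the same alveolar programme. The receptor tyrosine kinase Kit, the lipopolysaccharide co-receptor Cd14 and the retinal dehydrogenase Aldh1a3 mark luminal progenitors, lactoferrin (Ltf) is an iron-binding protein secreted into milk, Ehf and Elf3 are epithelial ETS factors, and Sox9 and Sox10 are SoxE-family factors of progenitor and basal states.

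RefSeq start-site sequence (GRCm38.p6) was at hand for 5 of the 10 genes. The 250 bases before the start are shown for Elf5 and Elf3, which are ETS-family genes, and for Kit, whose level followed that of Elf5 in tumours. Letters run 5′ to 3′ along the gene's strand, and capitals mark the ETS core GGAA and its complement TTCC. Elf5 has 2 listed starts, at chr2:103411848-103412097 and chr2:103423818-103424067 on the plus strand, Elf3 lies at chr1:135258473-135258722 on the minus strand, and Kit at chr5:75574737-75574986 on the plus strand. A further listed Kit start has a window from 75574741 to 75574990, nearly the same bases, and is not shown.
Elf5, start 1: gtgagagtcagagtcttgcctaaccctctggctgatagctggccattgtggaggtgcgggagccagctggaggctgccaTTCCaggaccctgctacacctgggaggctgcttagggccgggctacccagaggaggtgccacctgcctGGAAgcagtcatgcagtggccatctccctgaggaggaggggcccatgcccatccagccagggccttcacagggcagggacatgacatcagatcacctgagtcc
Elf5, start 2: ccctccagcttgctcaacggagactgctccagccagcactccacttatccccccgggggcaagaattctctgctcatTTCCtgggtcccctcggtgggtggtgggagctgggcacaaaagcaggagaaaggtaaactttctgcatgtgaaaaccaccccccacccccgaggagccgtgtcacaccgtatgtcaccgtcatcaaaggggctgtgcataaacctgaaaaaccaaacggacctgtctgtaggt
Elf3: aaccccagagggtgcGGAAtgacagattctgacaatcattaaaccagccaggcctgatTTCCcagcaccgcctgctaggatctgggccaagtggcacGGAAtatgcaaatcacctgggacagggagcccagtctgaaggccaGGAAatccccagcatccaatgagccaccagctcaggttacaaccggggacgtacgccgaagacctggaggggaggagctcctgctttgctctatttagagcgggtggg
Kit: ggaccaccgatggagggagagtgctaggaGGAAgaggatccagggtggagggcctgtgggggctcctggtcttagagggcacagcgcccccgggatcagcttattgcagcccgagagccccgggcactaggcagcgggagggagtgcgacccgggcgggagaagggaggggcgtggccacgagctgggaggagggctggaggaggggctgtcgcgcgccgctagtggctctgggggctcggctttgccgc
Counting both strands, GGAA occurred 2 times before the first Elf5 start, 1 time before the second, 4 times before Elf3 and 1 time before Kit. Of 32851 such windows in the RefSeq table, 93.5% held at least 1 GGAA, with a median of 3. Neither the longer ETS form CCGGAA (in 12.0% of windows) nor the STAT form TTCNNNGAA (in 7.02%) was in these 4 windows, which says only that these letters are not there. The bases were 62.8% and 56.8% G or C before the Elf5 starts, 57.2% before Elf3 and 70.8% before Kit, against a median of 52.4%. In the same assembly Ehf and Elf5 are neighbours on chromosome 2 with 0 protein-coding genes between them.

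Levels are given on the log2 scale of robust multi-array average (RMA) intensity, where 1 unit is a doubling. Glands and tumours were deposited on different scales and are kept apart, and levels of different probe sets are not compared with each other. All 10 genes passed the filter on low values in both tissues. Differences were tested with limma over 10916 genes in each tissue. No label says that gland repeats are separate mice, and their p-values could then reflect technical spread alone. Skeletal muscle transcripts were over 2 units above the median in 7 of 17 glands (2 WT sham, 1 WT at 1 week, 2 WT at 4 weeks, 1 HET sham and 1 HET at 1 week) and in 9 tumours. B cell transcripts were as far above the median in 1 gland (WT at 1 week), and 7 tumours were over 2 units below the tumour median for a list of 10 epithelial genes. The labels of 1 tumour, placed by its title with WT IR hosts, disagree on whether its host was irradiated. In whole tissue, fewer cells of a type and less RNA per cell cannot be told apart.

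**Figure D1:**
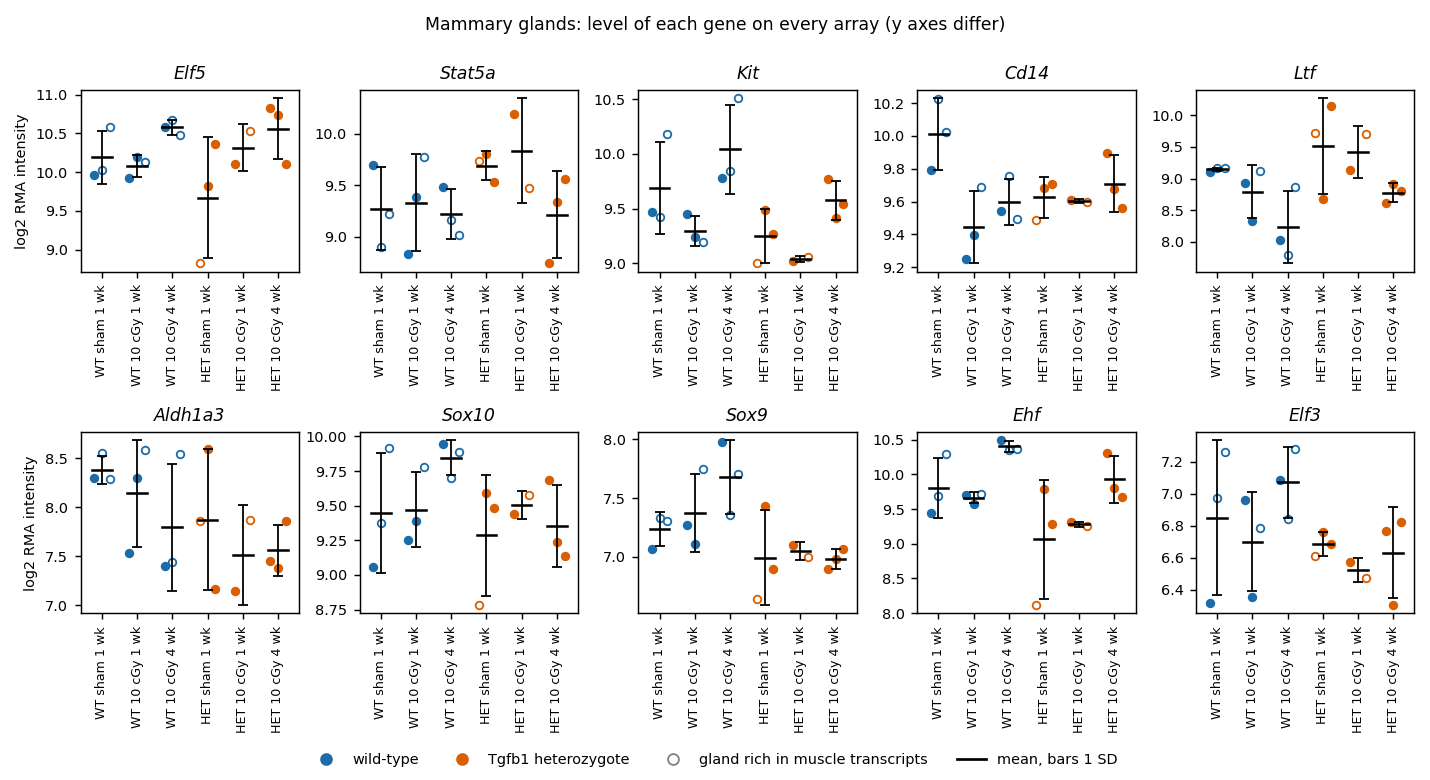
Level of each gene on every gland array (log2 RMA intensity, y axes differ) by group, with group means and bars of 1 SD; open points are the 7 glands rich in muscle transcripts. Cd14 in the 3 WT sham glands (9.79 to 10.22) lies above all 6 irradiated WT glands (9.25 to 9.76), and the muscle-rich HET sham gland is lowest for Elf5, Ehf and Sox10.

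In WT glands Cd14 was lower after 10 cGy than after sham at both times on every array, but no gene of the 10 passed the test over all genes. Cd14 stood at 9.79, 10.22 and 10.02 in WT sham, at 9.25, 9.40 and 9.69 at 1 week and at 9.54, 9.76 and 9.49 at 4 weeks. The sham glands were thus the highest, with no overlap. The difference from sham was -0.57 ± 0.14 (SE; unadjusted p = 0.000989, limma adjusted p = 0.976) at 1 week and -0.41 ± 0.14 (p = 0.00911, adjusted p = 1.00) at 4 weeks. In HET glands Cd14 was 9.48, 9.68 and 9.71 in sham, 9.61 and 9.59 at 1 week, and 9.90, 9.67 and 9.56 at 4 weeks, so the HET groups overlapped. The change in HET minus that in WT was 0.55 ± 0.21 (p = 0.0190) at 1 week and 0.50 ± 0.19 (p = 0.0221) at 4 weeks, both with adjusted p = 1.00 in limma. HET sham was also below WT sham without overlap, by -0.39 ± 0.14 (p = 0.0137, adjusted p = 0.968). The share of all genes without overlap was not counted for any of these group pairs. These 5 differences share the WT sham glands, of which 2 were muscle-rich. Leaving out the 7 muscle-rich glands leaves 1 gland each in WT sham, WT at 4 weeks and HET at 1 week. The difference in WT was then -0.47 at 1 week and -0.25 at 4 weeks. HET sham minus WT sham was -0.10, and the HET minus WT changes were 0.38 and 0.26. The partners of Cd14 in lipopolysaccharide sensing (Tlr4, Ly96, Tlr2, Myd88, Traf6, Ticam1 and Nfkbia) were tested too, and 0 of 7 passed in any gland comparison. At most 0.0458% of all genes passed in any of them.

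At 1 week in WT, 0 of the 10 genes passed the adjusted threshold, as did 0% of all genes, and 1 of 10 (Cd14) had an unadjusted p under 0.05 against 4.64% of all genes. At 4 weeks in WT the counts were 0 of 10 against 0%, and 3 of 10 against 2.15%: besides Cd14 these were Ltf and Sox9. Ltf was 9.11, 9.16 and 9.16 in WT sham and 8.03, 7.79 and 8.87 at 4 weeks, with no overlap, a difference of -0.91 ± 0.34 (p = 0.0166, limma adjusted p = 1.00). Sox9 was 7.07, 7.33 and 7.31 in WT sham and 7.98, 7.35 and 7.71 at 4 weeks, again without overlap. The difference was 0.44 ± 0.21 (p = 0.0493, limma adjusted p = 1.00). It was 0.91 without the muscle-rich glands, but this sets 1 gland against 1 gland. Ehf did not overlap either, with a difference of 0.60 ± 0.32 (p = 0.0814). The share of all genes without overlap was not counted for this comparison, so the lack of overlap is a description only. Because no sham gland was collected at 4 weeks, this comparison also spans 3 weeks of age and of time since the estrogen and progesterone. Radiation cannot be told apart from these here.

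In HET glands the alveolar factor Elf5 and its neighbour Ehf had their lowest values in 1 sham gland. Elf5 was 8.82, 9.82 and 10.36 in HET sham, 10.10 and 10.53 at 1 week, and 10.82, 10.74 and 10.11 at 4 weeks. Ehf was 8.11, 9.79 and 9.29 in HET sham, 9.31 and 9.25 at 1 week, and 10.31, 9.80 and 9.68 at 4 weeks. The sham and 4-week groups overlapped for both genes. These groups also differed by 3 weeks of age and of time since the hormones, as in WT. The 4-week minus sham differences were 0.89 ± 0.30 for Elf5 (p = 0.0109, limma adjusted p = 0.788) and 0.87 ± 0.32 for Ehf (p = 0.0162, adjusted p = 0.830), and -0.73 ± 0.34 for Ltf (p = 0.0474, adjusted p = 0.954). The lowest sham gland of Elf5 and Ehf, HET sham replicate 1, was the muscle-rich one, with a muscle list mean of 7.38 against 4.25 and 4.73 in the other HET sham glands. Without the muscle-rich glands the differences were 0.47 for Elf5 and 0.39 for Ehf. With the epithelial list mean as covariate Ehf was at 1.59, and with array weights Ltf was at -0.45. At 4 weeks 0 of 10 genes passed (0.0183% of all genes) and 3 of 10 had an unadjusted p under 0.05 (5.21% of all genes). At 1 week 0 of 10 passed (0%) and 0 of 10 had such a p (3.44%), the smallest being that of Elf5 (0.65 ± 0.34, limma p = 0.0769). Without the muscle-rich glands, which leaves 1 HET gland at 1 week, that Elf5 difference was 0.01.

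Between genotypes, 5 of the 10 genes were lower on every HET array than on every WT array at 4 weeks (Sox9, Kit, Sox10, Ehf and Elf3), as were 7.78% of all genes tested, and none of the 5 passed the test. Sox9 was 6.90, 6.98 and 7.07 in HET against 7.98, 7.35 and 7.71 in WT, a difference of -0.70 ± 0.21 (p = 0.00445, limma adjusted p = 0.702). Kit was 9.77, 9.41 and 9.54 in HET against 9.78, 9.84 and 10.51 in WT, a difference of -0.47 ± 0.22 (p = 0.0473, adjusted p = 0.805). The highest HET gland and the lowest WT gland for Kit were almost equal. The differences were -0.49 ± 0.24 for Sox10, -0.47 ± 0.32 for Ehf and -0.44 ± 0.22 for Elf3, each with an unadjusted p over 0.05. Without the muscle-rich glands, which leaves 1 WT gland at 4 weeks, the differences were -0.996 for Sox9 and -0.20 for Kit. With the mean of its probe sets in place of 1, Sox9 was at -0.38, and with the epithelial list mean as covariate Kit was at -0.16. At 4 weeks 0 of 10 genes passed (0.0183% of all genes) and 2 of 10 had an unadjusted p under 0.05 (6.16%).

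In sham glands HET minus WT was -0.74 ± 0.32 for Ehf (p = 0.0344, limma adjusted p = 0.968). It was 0.09 without the muscle-rich glands, which leaves 1 WT sham gland. With all sham glands 0 of 10 passed (0%) and 2 of 10, Cd14 and Ehf, had an unadjusted p under 0.05 (3.36%). At 1 week 0 of 10 passed (0%) and 0 of 10 had such a p (7.63%), with the smallest for Ltf (0.63 ± 0.38, p = 0.117). Ltf at 1 week was 9.14 and 9.71 in HET and 8.94, 8.32 and 9.12 in WT. Averaged over the 3 conditions, Sox9 (-0.42 ± 0.12), Ehf (-0.53 ± 0.19) and Kit (-0.39 ± 0.13) were lower and Ltf (0.51 ± 0.20) was higher in HET, with unadjusted p from 0.00423 to 0.0232 and limma adjusted p from 0.267 to 0.357. Without the muscle-rich glands Kit and Ehf were at -0.21 and -0.27, with 1 gland left in WT sham, WT at 4 weeks and HET at 1 week. With the mean of its probe sets Sox9 was at -0.23. With all glands 0 of 10 passed against 0.0458% of all genes, and 4 of 10 had an unadjusted p under 0.05 against 12%. Over the 10 genes 8 of the averaged differences were below 0 with a median of -0.23, against 6306 of 10916 and a median of -0.03 over all genes.

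The 4-week and 1-week irradiated glands differed in Kit more than in the other 9 genes by unadjusted p. Time since radiation cannot be told apart here from 3 weeks of age and of time since the hormones. Kit was 9.45, 9.24 and 9.20 in WT and 9.02 and 9.06 in HET at 1 week, below every 4-week gland of its own genotype. How many genes separate in this way was not counted. The mean difference over genotypes was 0.64 ± 0.16 (p = 0.00133, limma adjusted p = 0.156). Ehf, at 9.71, 9.58 and 9.71 in WT at 1 week and 10.49, 10.36 and 10.36 at 4 weeks, had a mean difference of 0.69 ± 0.24 (p = 0.0114, adjusted p = 0.238), or 0.43 with the mean of its probe sets. Ltf ran the other way, at -0.60 ± 0.25 (p = 0.0314, adjusted p = 0.300). Over the 10 genes 0 passed (0%) and 3 had an unadjusted p under 0.05, but 14.6% of all genes did. For the genotype-by-radiation differences 0 of 10 passed at either time (0% of all genes), and 1 of 10, Cd14, had an unadjusted p under 0.05 (2.83% of all genes at 1 week and 1.73% at 4 weeks).

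The remaining gland levels had no difference with an unadjusted p under 0.05. Stat5a ranged from 8.74 to 10.20 over the 17 glands, with group means from 9.21 ± 0.42 (SD, n = 3, HET at 4 weeks) to 9.84 ± 0.51 (n = 2, HET at 1 week). Aldh1a3 ranged from 7.15 to 8.60, with group means from 7.51 ± 0.51 (n = 2, HET at 1 week) to 8.38 ± 0.15 (n = 3, WT sham). Sox10 ranged from 8.78 to 9.94 and its group means from 9.29 ± 0.44 (n = 3, HET sham) to 9.85 ± 0.13 (n = 3, WT at 4 weeks). Elf3 ranged from 6.30 to 7.28 and its group means from 6.52 ± 0.07 (n = 2, HET at 1 week) to 7.07 ± 0.22 (n = 3, WT at 4 weeks). In order of level, neighbouring group means of Stat5a, Aldh1a3 and Elf3 differed by less than the larger of their SDs, while the highest Sox10 mean, WT at 4 weeks, lay further above the next one. Among lists of related genes, 0 of 11 tested luminal progenitor genes, 0 of 15 genes of prolactin and Stat5 signalling (such as Jak2, Socs3 and Stat5b), 0 of 13 milk genes and 0 of 6 genes of Kit signalling passed in any gland comparison. At most 0.0458% of all genes passed in any of them, so these zeros say little about the lists.

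Across the 17 glands these genes varied together in part. Of 45 pairs, 11 had an adjusted permutation p under 0.05 by Pearson's r (10 above 0 and 1 below), 4 by Spearman's rho. Kit and Ehf had r = 0.79 (permutation p = 0.00027, adjusted over the 45 pairs 0.0061), rho = 0.82 (p = 0.00013, adjusted 0.0058), and r = 0.85 without the 2 glands farthest from the Kit median. Ltf and Ehf ran opposite, with r = -0.69 (permutation p = 0.0024, adjusted 0.016) and rho = -0.69 (p = 0.0027, adjusted 0.041), and r = -0.68 without the 2 farthest glands. After group means were subtracted 3 pairs stayed past the threshold, all among Elf5, Ehf and Sox10. Of these Sox10 and Ehf had r = 0.87 (permutation p = 2e-05, adjusted 0.0009) and rho = 0.86 (p = 1e-05, the smallest that 100000 resamples give, adjusted 0.00045), and r = 0.80 without the 2 farthest. The 10 genes were chosen together, so these adjusted values describe this set only.

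**Figure D2:**
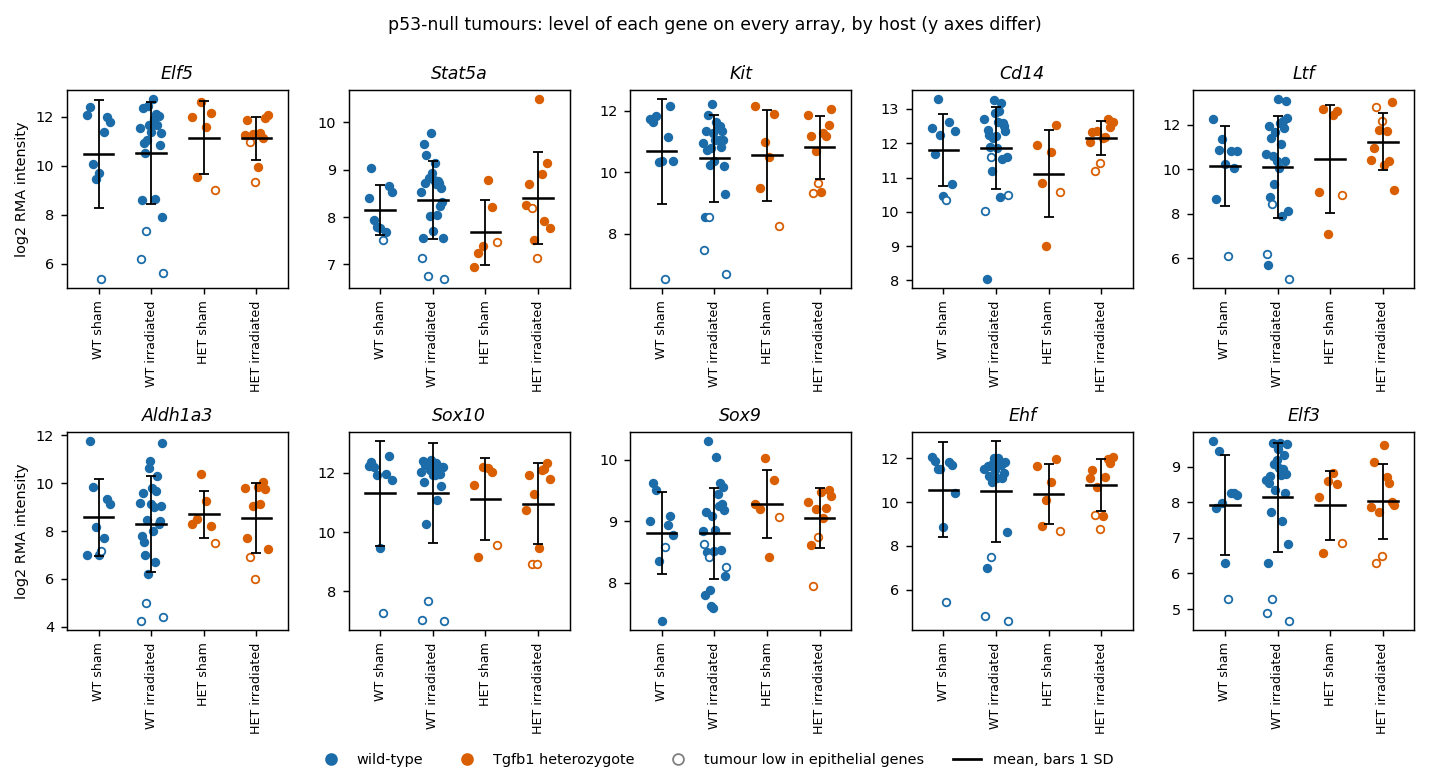
Level of each gene in every tumour (log2 RMA intensity, y axes differ) by host group, with group means and bars of 1 SD; open points are the 7 tumours low in epithelial genes. The 4 groups overlap for all 10 genes, and the lowest values of Elf5, Ehf, Kit and Sox10 are open points.

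In tumours the 10 genes varied far more between tumours than between host groups. Elf5 ran from 5.40 to 12.73 over 48 tumours, Ehf from 4.59 to 12.06, Ltf from 5.08 to 13.14 and Aldh1a3 from 4.26 to 11.76. The narrowest was Sox9, from 7.39 to 10.30. The SD of Elf5, Ehf and Ltf within host groups was 1.85, 2.00 and 2.06, and their SD over all tumours exceeded that of 99.3%, 99.6% and 99.8% of the tested genes.

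Host radiation and host genotype gave no difference past the threshold for any of the 10 genes. Elf5 had its lowest, median and highest value at 5.40, 11.38 and 12.39 in WT sham hosts (n = 9), 5.62, 11.38 and 12.73 in WT IR hosts (n = 23), 9.03, 11.78 and 12.61 in HET sham hosts (n = 6) and 9.33, 11.29 and 12.08 in HET IR hosts (n = 10). The 4 ranges overlapped widely. Kit had 6.55, 11.16 and 12.15 in WT sham, 6.71, 10.97 and 12.22 in WT IR, 8.26, 10.76 and 12.17 in HET sham, and 9.32, 11.19 and 12.05 in HET IR hosts, again overlapping. In WT hosts IR minus sham was 0.06 ± 0.71 (95% interval -1.36 to 1.48) for Elf5 and -0.22 ± 0.54 (-1.31 to 0.87) for Kit, so a 2-fold lower level lies within both intervals. The narrowest interval was that of Sox9, at -0.002 ± 0.25 (-0.51 to 0.51). With 0 of 10 passed (0%) and 0 of 10 at an unadjusted p under 0.05 (6.59% of all genes), the smallest p in WT hosts was that of Stat5a (0.22 ± 0.31, p = 0.476; 0.44 with array weights and 0.37 without the 7 epithelial-low tumours).

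In HET hosts Cd14 had the smallest p of the 10 for host radiation. Its lowest, median and highest values were 8.99, 11.29 and 12.54 in HET sham hosts and 11.20, 12.24 and 12.72 in HET IR hosts, and the groups overlapped. IR minus sham was 1.04 ± 0.54 (95% interval -0.04 to 2.12, p = 0.0595, limma adjusted p = 0.999), and the difference ranged from 0.62 to 1.33 as each tumour was left out and was 0.68 with array weights. Stat5a was 6.94, 7.44 and 8.78 in HET sham and 7.13, 8.22 and 10.49 in HET IR hosts, also overlapping, a difference of 0.72 ± 0.40 (-0.08 to 1.53, adjusted p = 0.999). Here 0 of 10 passed (0%) and 0 of 10 had an unadjusted p under 0.05 (4.05%). HET minus WT in sham hosts gave 0 of 10 (0%) and 0 of 10 (5.16%), with the smallest p for Sox9 (0.47 ± 0.34, p = 0.174; 0.29 with array weights or with the mean of its probe sets). In IR hosts it gave 0 of 10 (0%) and 0 of 10 (5.32%), with the smallest p for Ltf (1.14 ± 0.76, p = 0.138; 0.41 with array weights, 0.67 without the muscle-rich tumours and 0.31 without the 7 epithelial-low tumours). The difference between the radiation effects in HET and WT hosts gave 0 of 10 (0%) and 0 of 10 (4.75%), with the smallest p for Cd14 (0.99 ± 0.68, p = 0.151; 0.43 with array weights). Of the related lists, 0 of 9 luminal progenitor, 0 of 14 prolactin and Stat5, 0 of 12 milk, 0 of 6 Kit signalling and 0 of 7 lipopolysaccharide-sensing genes passed in any of the 5 tumour comparisons. As 0% of all genes passed in each of these 5, the list counts could only be 0 and say nothing about the lists.

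**Figure D3:**
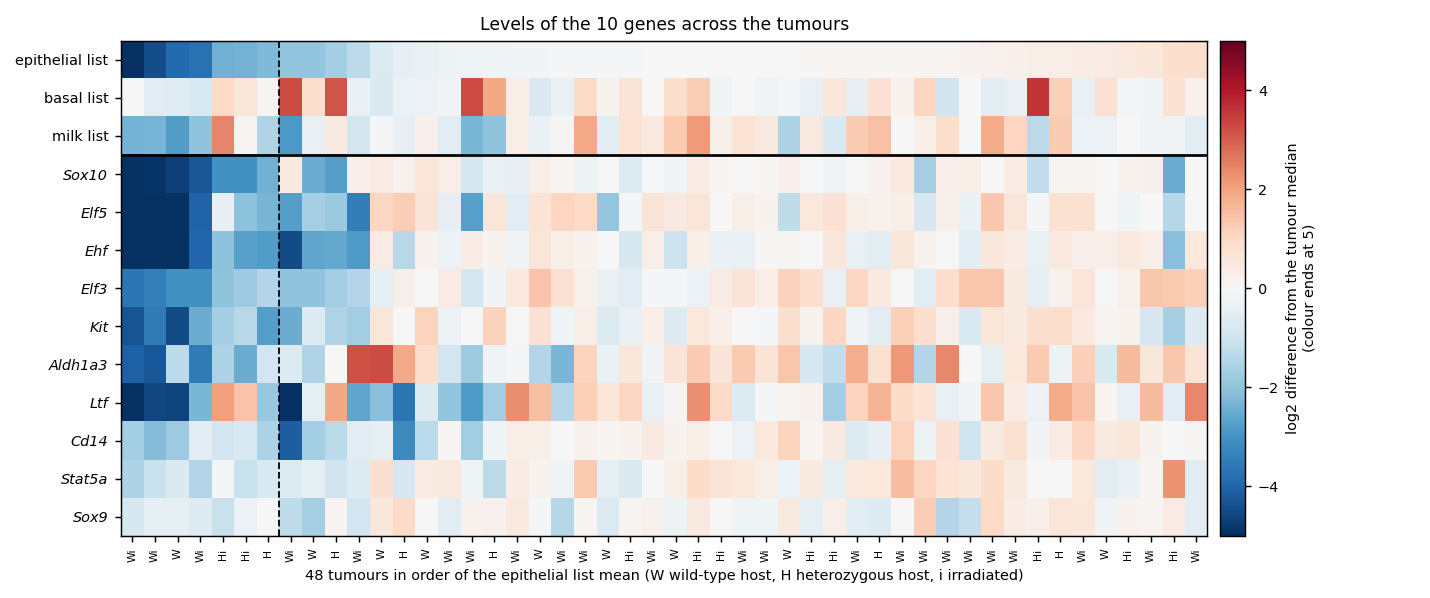
Level of each gene in the 48 tumours as the log2 difference from its tumour median (colour, ends at 5), ordered from left to right by the mean of the epithelial list, with the means of the epithelial, basal and milk lists above the solid line. The dashed line separates the 7 tumours low in epithelial genes, where Sox10, Elf5 and Ehf medians were 4.35, 4.24 and 4.01 units lower than in the other 41; Cd14, Stat5a and Sox9 show smaller steps.

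The 7 tumours low in epithelial genes set the lower end of most of these ranges. They came from all 4 host groups (3 WT IR, 1 WT sham, 1 HET sham and 2 HET IR), with epithelial list means of 7.15 to 10.06 against 10.28 to 13.14 in the other 41, here called epithelial tumours. Sox10 had a median of 7.67 in the 7 and 12.01 in the 41, and 6 of the 7 lay below all 41. Elf5 medians were 7.34 and 11.58, with 4 of 7 below all 41. For Ehf they were 7.51 and 11.53, for Elf3 5.29 and 8.54, for Aldh1a3 6.01 and 9.05, and for Kit 8.26 and 11.16. Cd14 (10.58 and 12.25), Stat5a (7.14 and 8.53) and Sox9 (8.58 and 9.15) had smaller steps, and no epithelial-low tumour was below all 41 for Cd14 or Sox9. Ltf was divided: 5 of 7 lay under the median of the 41, while HET IR replicates 11 and 13 had 12.78 and 12.17. Replicate 11 also had Elf5 at 10.98 and the highest milk list mean of all tumours, 11.47, with an epithelial list mean of 9.87. These medians are a description, since most of the 10 genes are themselves epithelial.

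Among the 41 epithelial tumours Kit, Ehf and Elf5 varied together. Kit and Ehf had r = 0.80 (permutation p = 1e-05, the smallest that 100000 resamples give, adjusted over 45 pairs 0.00045), rho = 0.62 (p = 2e-05, adjusted 0.0009), and r = 0.67 without the 2 tumours farthest from the Kit median. Elf5 and Ehf had r = 0.65 (p = 9e-05, adjusted 0.00081) and rho = 0.50 (p = 0.001, adjusted 0.0094), and r = 0.44 without the 2 farthest, by permutation. Elf5 and Kit had r = 0.65 (permutation p = 2e-05, adjusted 0.00045) and rho = 0.54 (p = 0.00036, adjusted 0.004), and r = 0.48 without the 2 farthest. The 3 relations had the same sign in each host group with at least 6 epithelial tumours. For Kit and Ehf r was 0.84 over 20 WT IR, 0.66 over 8 WT sham and 0.87 over 8 HET IR tumours. For Elf5 and Ehf it was 0.72, 0.48 and 0.85, and for Elf5 and Kit 0.65, 0.53 and 0.85. For the protein-coding genes on the outer sides of the Ehf and Elf5 pair on chromosome 2, Ehf had r = 0.49 with Cat and 0.43 with Apip over the 41 tumours, and Elf5 had 0.33 and 0.13.

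Cd14 was related to Ehf and to Ltf. Over the 41 tumours Cd14 and Ehf had r = 0.69 (permutation p = 7e-05, adjusted 0.00079), rho = 0.55 (p = 0.00023, adjusted 0.0034), and r = 0.50 without the 2 farthest. Cd14 and Ltf had r = 0.61 (permutation p = 4e-05, adjusted 0.0006), but rho = 0.38 (p = 0.013, adjusted 0.075) and r = 0.31 without the 2 farthest, so that relation rested largely on those tumours. Within HET IR hosts Cd14 and Ltf had r = -0.15 over 8 tumours, against 0.73 over 20 WT IR tumours. Sox9 was related to Kit (r = 0.51, permutation p = 0.00076, adjusted 0.0043; rho = 0.57, p = 0.00015, adjusted 0.0034; 0.41 without the 2 farthest). Over all 48 tumours 40 of the 45 pairs had an adjusted p under 0.05, all above 0. Over the 41 epithelial tumours 18 did by Pearson's r and 6 by Spearman's rho, and with host group and the epithelial list mean taken out 4 did by each measure. By r these were Kit with Ehf (0.73), Elf5 with Kit (0.56), Elf5 with Ehf (0.55) and Cd14 with Ltf (0.46, or 0.23 without the 2 farthest tumours), and by rho Kit with Sox9 took the place of Cd14 with Ltf.

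Aldh1a3 and Stat5a had few relations past the threshold in the epithelial tumours. None of the 9 pairs of Aldh1a3 passed the threshold over the 41 tumours, its highest r being 0.25 with Sox10, although the same pair had 0.67 over 48. Stat5a passed with Elf3 alone (r = 0.44, permutation p = 0.0044, adjusted 0.018; rho = 0.41, p = 0.0082, adjusted 0.052; 0.41 without the 2 farthest). Its relation to Elf5 was r = 0.27 (permutation p = 0.092, adjusted 0.16; rho = 0.24, p = 0.13, adjusted 0.28; 0.14 without the 2 farthest). For Stat5a with Kit and with Ehf r was 0.19 and 0.25, and 0.51 and 0.47 without the 2 tumours farthest from the Stat5a median. Host groups differed in sign, which was not tested. For Stat5a with Elf5 r was 0.57 over 20 WT IR, 0.81 over 8 WT sham and -0.58 over 8 HET IR tumours. With Kit it was 0.78, 0.46 and -0.65, and with Ehf 0.53, 0.32 and -0.64. The HET IR tumours include replicate 14, which had the highest Stat5a level.

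Over the 48 tumours the gene most like Kit, of 10915 tested, was Ehf (r = 0.92), followed by the tight-junction gene Ocln (0.89) and Cited4 (0.88), a transcriptional co-activator gene. Ehf was most like Cited4 (0.94), the claudin gene Cldn7 (0.94) and Nipal2 (0.93), and Elf5 most like the epithelial protease gene Prss8 (0.92), BC006965 (0.91) and Rhpn2 (0.91). Elf3 was most like the epithelial splicing factor gene Esrp2 (0.92), Sox10 like the AP-2 factor gene Tfap2c (0.95) and Stat5a like Stat5b (0.84). Stat5b is a near-identical paralogue, and whether its transcripts bind the Stat5a probes was not tested. Ltf was most like Wfdc18 (0.77), Sftpd (0.77) and the casein gene Csn1s1 (0.77), Cd14 like the ceruloplasmin gene Cp (0.80), Aldh1a3 like Dapk1 (0.79) and Sox9 like Akap9 (0.68). Over the 41 epithelial tumours the gene most like Kit was again Ehf (0.80), that most like Elf3 again Esrp2 (0.80) and that most like Stat5a again Stat5b (0.82). The first gene differed for the others: Abhd14b for Elf5 (0.80), Ocln for Ehf (0.86), Sntb1 for Sox10 (0.92), Wfdc18 for Cd14 (0.80), Spns2 for Ltf (0.70), Mtpn for Aldh1a3 (0.70) and Crebl2 for Sox9 (0.68). Likeness carried no test here. An r over 0.5 was common: 9.85% of tested genes had it with Kit, 10.6% with Ehf and 9.87% with Elf5 over the 48 tumours, and 2.20%, 5.06% and 4.50% over the 41.

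In the 41 epithelial tumours the levels of many genes followed Elf5 beyond host group and the epithelial list mean. This slope was chosen after seeing the data and was tested with limma over 10915 genes, in log2 units per log2 unit of Elf5. Of the other 9 genes 2 rose with Elf5, Kit (0.42 ± 0.11, SE, limma adjusted p = 0.0118) and Ehf (0.36 ± 0.11, adjusted p = 0.0290), and 0 fell, against 5.22% of all genes that rose and 4.41% that fell. Sox10 (0.28 ± 0.12, adjusted p = 0.128) and Elf3 (0.16 ± 0.09, adjusted p = 0.247) came next. Ehf lost its call without WT sham replicate 2 (0.32, adjusted p = 0.0740) or HET IR replicate 14 (0.21, adjusted p = 0.152), and leaving out each tumour gave 1 to 3 risers of the 9. With no epithelial covariate 5 of the 9 rose.

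Of 12 milk and secretory genes 4 rose with Elf5 and 0 fell: Xdh, the xanthine dehydrogenase of the milk fat globule (0.65 ± 0.10, limma adjusted p = 0.000144), Lalba, the lactose synthase subunit alpha-lactalbumin (1.22 ± 0.34, adjusted p = 0.0183), and the caseins Csn1s1 (0.82 ± 0.23, adjusted p = 0.0191) and Csn3 (0.55 ± 0.17, adjusted p = 0.0390). The median slope of the 12 was 0.60. Of all genes 5.22% rose and 4.41% fell. Csn1s1 and Csn3 did not pass without WT IR replicate 16, at 0.62 and 0.30, and 9 of the 41 tumours each ended the Csn3 call when left out. Of 9 basal genes 3 fell, the keratins Krt17 (-0.96 ± 0.24, adjusted p = 0.0107), Krt14 (-0.89 ± 0.27, adjusted p = 0.0323) and Krt5 (-0.71 ± 0.22, adjusted p = 0.0340), and 0 rose. Krt5 and Krt14 did not pass without that same tumour, without WT sham replicate 2 or without HET sham replicate 3, and Krt14 did not without WT IR replicate 9 either. With no epithelial covariate Krt14 did not pass (-0.54, limma adjusted p = 0.103). Over all 48 tumours neither Krt14 (-0.75, adjusted p = 0.0510) nor Krt5 (-0.49, adjusted p = 0.186) passed. Of 9 mesenchymal genes the repressors Snai2 (-0.69 ± 0.17, adjusted p = 0.0106) and Zeb1 (-0.38 ± 0.12, adjusted p = 0.0371) fell, but Snai2 did not pass without WT IR replicate 16, and 8 of the 41 tumours each ended the Zeb1 call. Zeb1 did not pass over all 48 tumours either (-0.23, limma adjusted p = 0.232).

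Other genes that followed Elf5 came from several lists. Over all genes 5.22% rose and 4.41% fell, so 1 call in a list this short says little about the list. Lists with 0 calls included 4 hormone-sensing, 7 lipopolysaccharide-sensing, 11 macrophage, 9 fibroblast and 6 endothelial genes. Among 14 genes of prolactin and Stat5 signalling 0 rose and 2 fell, the cyclin gene Ccnd1 (-0.41 ± 0.07, limma adjusted p = 0.000758) and the kinase gene Jak2 (-0.24 ± 0.07, adjusted p = 0.0291). Of 9 other luminal progenitor genes the lipopolysaccharide-binding protein gene Lbp rose (0.48 ± 0.13, adjusted p = 0.0151). Of 7 retinoic acid genes the retinol carrier receptor Stra6 fell (-0.82 ± 0.19, adjusted p = 0.00578), of 10 relatives of the ETS and Sox factors Sox11 fell (-0.97 ± 0.17, adjusted p = 0.000429), and of 6 Kit signalling genes Pik3r1 rose (0.21 ± 0.06, adjusted p = 0.0317) and the ubiquitin ligase gene Cbl fell (-0.14 ± 0.04, adjusted p = 0.0147). The claudins Cldn7 (0.28 ± 0.06) and Cldn3 (0.29 ± 0.06) rose too (adjusted p = 0.00190 and 0.00299), although both belong to the list used as covariate. Lbp and Jak2 did not pass without WT IR replicate 16, Jak2 not without HET IR replicate 14, Cbl not without WT sham replicate 4, and Pik3r1 not without WT sham replicate 4, WT IR replicate 14 or HET IR replicate 14. Jak2 did not pass with no epithelial covariate (-0.13, limma adjusted p = 0.135) or with the mean of probe sets (-0.21, adjusted p = 0.05255). Cbl did not with the mean of probe sets (-0.08, adjusted p = 0.123) or over all 48 tumours (-0.12, adjusted p = 0.0721). Of 3 chondrocyte genes Col9a1 rose (0.86 ± 0.24, adjusted p = 0.0232), but did not pass without WT IR replicate 16.

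**Figure D4:**
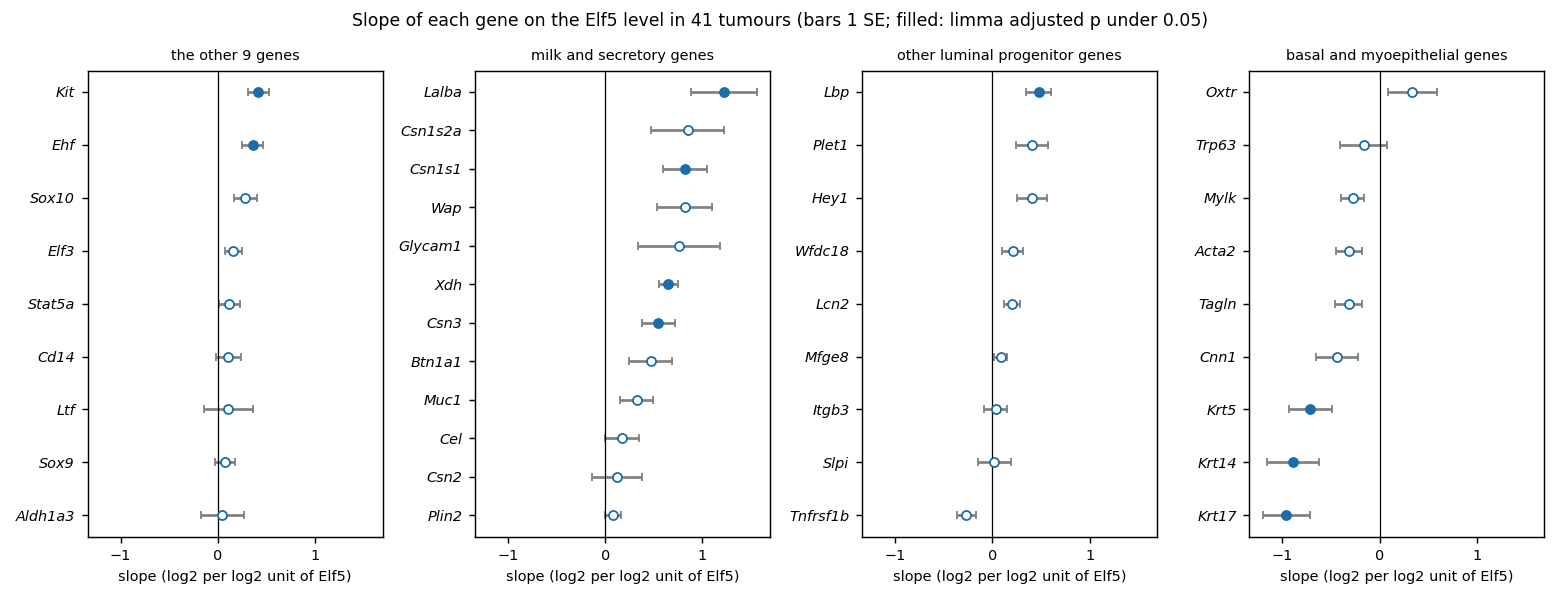
Slope on the Elf5 level over 41 epithelial tumours (log2 units per log2 unit of Elf5, with host group and the epithelial list mean in the fit) for the other 9 genes and 3 gene lists; bars are 1 SE and filled points have a limma adjusted p under 0.05. Xdh, Lalba, Csn1s1, Csn3, Kit, Ehf and Lbp lie above 0 and Krt17, Krt14 and Krt5 below 0.

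The same fit on the Stat5a level gave few calls. None of the other 9 genes rose or fell, against 0.0183% of all genes that rose (2 genes) and 0.00916% that fell (1 gene). Stat5b rose with it (0.52 ± 0.06, limma adjusted p = 5.88e-06), with the limit on cross-binding given above. Of the 12 milk genes 0 passed, with a median slope of 0.94. Whether the slopes on Elf5 and on Stat5a differ was not tested.

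Lists of other cell types moved with some of these genes in the 41 tumours. Over 90 relations of a gene to a list, Ltf followed the milk list (r = 0.64, permutation p = 2e-05, adjusted 0.0006; rho = 0.52, p = 0.00073, adjusted 0.011; 0.48 without the 2 farthest tumours), as did Elf5 (r = 0.55, permutation p = 0.00014, adjusted 0.0018; rho = 0.42, p = 0.0071, adjusted 0.049; 0.37 without them) and Stat5a (r = 0.50, permutation p = 0.00094, adjusted 0.0086; rho = 0.50, p = 0.00096, adjusted 0.011; 0.48 without them). Elf3 ran against the list of basal genes (r = -0.61, permutation p = 7e-05, adjusted 0.0012; rho = -0.57, p = 0.00015, adjusted 0.0099; -0.55 without them), as did Sox10 (r = -0.51, permutation p = 0.0019, adjusted 0.014; rho = -0.50, p = 0.0013, adjusted 0.013; -0.61 without them). By r, but not by rho, Elf5 (-0.45, permutation adjusted p = 0.023), Cd14 (-0.43, 0.032) and Ehf (-0.39, 0.041) passed against it too. Ltf, which neutrophils and other cells also make, followed the macrophage list (r = 0.46, permutation p = 0.0025, adjusted 0.016; rho = 0.38, p = 0.014, adjusted 0.072; 0.37 without the 2 farthest tumours). With the neutrophil list Ltf had r = 0.28 (permutation p = 0.074, adjusted 0.16) and rho = 0.38 (p = 0.015, adjusted 0.076), and r = 0.57 without the 2 farthest. Over the 17 glands Ltf and the neutrophil list had r = 0.63 (permutation p = 0.0074, adjusted 0.11) and rho = 0.55 (p = 0.023, adjusted 0.21). The part of these cells in the Ltf level was not tested. The macrophage list ran from 8.71 to 11.49 over the 48 tumours. Elf3 also ran against the mesenchymal list in the 41 tumours (r = -0.65, permutation p = 1e-05, adjusted 0.00045). So did Elf5 (-0.56, permutation adjusted p = 0.003), Ehf (-0.52, 0.0086), Stat5a (-0.43, 0.027) and Sox10 (-0.40, 0.038). With the epithelial list itself Elf3 had r = 0.79 (permutation p = 1e-05, adjusted 0.00045), and these list relations were not adjusted for it. In the 17 glands the sign for Sox10 and the basal list was the opposite one. There r was 0.71 (permutation p = 0.0013, adjusted 0.055) and rho 0.74 (p = 0.0013, adjusted 0.042). For Elf3 and the basal list in glands r was 0.46 (permutation p = 0.065, adjusted 0.3). Other cells that carry Kit, Sox10 or Ltf were covered by 4 lists. In tumours 1 of 9 mast cell, 1 of 6 melanocyte, 2 of 5 Schwann cell and 5 of 11 neutrophil genes passed the filter on low values. In glands 5, 1, 4 and 4 of these passed.

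Single tumours departed from the common pattern. HET IR replicate 14 had the highest Stat5a of all tumours (10.49) and an epithelial list mean of 13.05, yet Ehf at 9.38, Kit at 9.38 and Sox10 at 9.47, all below the medians of the 41. WT IR replicate 3 had Sox10 at 12.39 with Ehf at 7.01, Cd14 at 8.05 and Ltf at 5.71, the last 3 being the lowest of the 41, and a basal list mean of 10.88. WT IR replicate 16 had Elf5 at 8.66 and a basal list mean of 10.86, but Ehf at 11.82 and Kit at 11.07. The 2 highest Aldh1a3 levels were in tumours of opposite Elf5 level: WT sham replicate 2 had Aldh1a3 at 11.76 and Elf5 at 12.39, WT IR replicate 22 had 11.67 and 7.91. These tumours were picked for their distance from the line on the epithelial list mean, and no test was made of them.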

How the data were processed

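RNA from 17 glands and 48 tumours was labelled from 80 ng and 100 ng and hybridised, per the labels' protocols. For glands the authors deposited linear intensity, for tumours log2 values. The submitters' processing notes name RMA; no source used here gives its version or says whether 1 run covered both tissues. Gland intensity was converted to log2. On that scale array medians ran from 4.86 to 4.93 (glands) and from 5.84 to 5.96 (tumours). Precision is limited by the number of arrays.

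Of 45101 probe sets 34958 had 1 annotated gene, 932 several and 9211 none, and 99.4% of gene IDs matched RefSeq GRCm38.p6. Each gene was its probe set with the highest mean in the tissue. Genes with a mean under the 40th percentile over genes (5.33 in glands, 6.19 in tumours) were not tested. Group means were fitted in limma 3.58.1 (R 4.3.3), 1 model per tissue, with a variance trend, two-sided p-values and Benjamini-Hochberg adjustment over the tested genes (threshold 0.05) for 11 gland and 5 tumour comparisons. Correlations used 100000 permutations, two-sided (scipy). On simulated data of 10916 genes, changes were added to genes drawn at random, 67 of them 1.5-fold, 67 2-fold and 66 4-fold. Of the 2-fold ones, 85.1% were recovered for WT glands at 1 week and 77.6% for WT hosts. So many changed genes ease the adjusted threshold, whereas 0% of all genes passed in these 2 comparisons of the data. Each of the 10 genes had a larger SD than at least 77.8% of tested genes over tumours and 61.2% over glands. For Elf5, Ltf, Ehf and Aldh1a3 over glands it was at least 93.3%. Both shares are thus for typical genes in that setting, and recovery for these 10 was not examined. Of slopes of 0.5 on Elf5, also in randomly drawn genes, 94% were recovered among 10915 genes.

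The genes and lists were chosen with earlier results of these data known. Values with a p were printed for genes with an unadjusted p under 0.05, or else the smallest; list genes were named where adjusted p passed, and likeness by the 3 highest r over 48 tumours. Slopes on Elf5 and Stat5a were added after seeing the data. Residual correlations do not settle whether repeat numbers pair arrays. Same-numbered glands of different groups had values of -0.53 to 0.40, with 16 of 40 over 0.1. Differently numbered glands had -0.41 to 0.45, with 19 of 80 over 0.1. Alternatives covered probe sets, filters, normalization, weights, a replicate block, an epithelial covariate and arrays left out.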

Additional observations from a re-analysis of the deposited data

Results flagged for a closer look

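In the 3 tumour groups of 4 to 10 tumours each gene was examined for a lowest or highest tumour far from the others by Dixon's criterion at 95%, 30 sets of values in all, and 3 stood out. Chance alone flags about 1 in 20 sets. All 3 were the same tumour, WT sham replicate 6. Its Elf5 level was 5.40, where the next lowest WT sham tumour had 9.45. Its Kit level was 6.55 against a next lowest of 10.33. Its Ehf level was 5.42 against a next lowest of 8.84. This tumour had an epithelial list mean of 8.39, a skeletal muscle list mean of 10.24 and a macrophage list mean of 11.42, and the part of these in the 3 values was not tested.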

How the results depend on the processing

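The count of the 10 genes called was 0 in each of 16 comparisons, and 0 in all 613 refits of those counts, in which 1 choice was changed or 1 array left out at a time. With a replicate block (repeat number as a fixed effect) 0 of the 10 genes were called in the 16 comparisons too. The tumour difference of Cd14 in HET hosts was 0.01 with that block. The HET minus WT difference of Ltf in IR hosts was 0.26 and the Cd14 difference between radiation effects 0.44. HET sham and HET IR tumours share no repeat number, and whether repeat numbers pair the other tumours was not settled. The Ehf difference between HET and WT sham glands changed sign, from -0.74 to 0.0921, when muscle-rich glands were left out; this leaves 1 WT sham gland. Pairs past the threshold in tumours were 40 over 48 tumours, 18 with the epithelial-low tumours left out and 4 on residuals from group means and the epithelial list mean. The risers with Elf5 were 2 of 9, and 5 with no epithelial covariate; leaving out each tumour gave 1 to 3. Genes rising with Elf5 over all tested numbered 570, or 1240 with no epithelial covariate and 360 over all 48 tumours; falling genes numbered 481, or 948 with no covariate and 284 without WT sham replicate 2. Genes rising with Stat5a numbered 1 to 11 and falling 0 to 4 as each tumour was left out, with 11 and 4 without HET IR replicate 14. The causes were not tested. Gland groups of 2 or 3 arrays limit what could pass. In simulation 44.8% of 1.5-fold changes were recovered for WT glands at 1 week, when added to randomly drawn genes along with larger changes in others.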

Other observations

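The 2 HET glands taken 1 week after 10 cGy lay at opposite ends for milk genes. The mean over the milk list was 7.30 in replicate 1 and 11.02 in replicate 2, the lowest and the highest of all 17 glands. Elf5 was 10.10 and 10.53 in these glands, Stat5a 10.20 and 9.48, and Ltf 9.14 and 9.71. The gland with the high milk list was muscle-rich, and its partner was not.

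The second probe sets of several of these genes followed the first in tumours. The 2 Elf5 probe sets had r = 0.96 over 48 tumours and 0.68 over 17 glands, the 2 Kit probe sets 0.91 and 0.78, and the 2 Stat5a probe sets 0.89 and 0.73. Another Sox10 probe set, with a mean of 3.65 in glands and 6.09 in tumours, had r = 0.90 in tumours and -0.05 in glands. Ehf, Sox9 and Aldh1a3 also had low probe sets, with gland means of 3.68, 3.37 and 4.01. Their r with the first was 0.22, 0.69 and 0.75 in tumours and -0.02, 0.22 and 0.03 in glands. Such low probe sets enter the means over probe sets given above. These are descriptions across arrays that share their normalization.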
